A study of Mus musculus with 6 samples.

Results

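Transcripts of the TGF-beta and BMP system were examined in 3T3-L1 cells depleted of stomatin. The members were 52 listed genes for ligands, receptors, extracellular antagonists, Smads and Id proteins, and 51 of them had a transcript cluster whose only gene symbol in the array annotation was theirs, out of 19088 protein-coding genes tested. Each of the 51 had 1 such cluster. Gdf15 was not analysed here. The members were listed by function, not by a threshold on these values, but they were chosen with earlier results of these data known.

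3T3-L1 is a mouse fibroblast line that turns into adipocyte-like cells when given a cocktail of IBMX, dexamethasone and insulin. The shSTOM-1 cells carried a lentiviral shRNA against Stom, and the Control cells carried the vector-only lentivirus. Both received puromycin (3 µg/ml, 3 days) to select infected cells, were differentiated and harvested on day 7, and 3 arrays of each were made from 200 ng of total RNA. The samples are numbered as clones, and whether these were separate cultures is not given in the sources used here, so the p-values cover the spread among these arrays alone, and that spread may be technical. Only 1 shRNA was on the arrays.

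Ligands of this superfamily bring together type I and type II receptor kinases, which phosphorylate receptor Smads. TGF-beta, activin and myostatin act through Smad2 and Smad3, and BMPs through Smad1 and Smad5, each in complex with Smad4. In preadipocytes TGF-beta signaling is known to restrain adipocyte differentiation, while BMP2 and BMP4 can commit mesenchymal precursors to the fat lineage.

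Values are array signals on the log2 scale, and changes are log2 changes (the shSTOM-1 mean minus the Control mean) with Benjamini-Hochberg adjusted p-values from limma over all 19088 genes. A group mean at or under 5.60, which is 0.5 above the median of all values, is called low signal, because the values hold no detection calls. Array medians lay between 5.06 and 5.11, and correlations across all transcript clusters were 0.9975 to 0.9979 within a group and 0.9789 to 0.9807 between groups. Stom itself was at 10.57, 10.60 and 10.67 in the shSTOM-1 arrays, against 13.17, 13.03 and 13.26 in the Control arrays, 5.82-fold lower (adjusted p = 1.13e-08 from limma). Of 16 white adipocyte markers, 15 fell (93.8%, against 22.7% of all genes) and none rose in shSTOM-1 cells. The exception was Lep, low in both groups. The mean signal of the list was 10.46 to 10.91 in shSTOM-1 arrays and 14.12 to 14.19 in Control arrays. Of 10 preadipocyte and fibroblast markers, 9 rose (90.0%, against 22.2% of all genes) and none fell. Of those that rose, Cd34 had low signal in both groups and Pi16 in Control cells. The list means were 9.86 to 9.95 in shSTOM-1 arrays and 8.55 to 8.67 in Control arrays. The lists moved in opposite directions on the same arrays as the members, and their part in the members' changes was not tested. In such bulk samples fewer cells of a type and less RNA per cell cannot be told apart.

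Among the 51 members, 21 were higher and 10 were lower at an adjusted p of 0.05, and 20 missed it. The share of higher members was 41.2%, against 22.2% of all genes tested, and the share of lower members was 19.6%, against 22.7% of all genes. In both directions together 60.8% of members passed, against 44.9% of all genes. With a change of at least 2-fold, 11 members (21.6%) were higher, against 5.34% of all genes, and 4 members (7.84%) were lower, against 5.57%. The groups did not overlap in 37 members (72.5%), against 51.9% of all genes. The median log2 change of the members was 0.11 and that of all genes was 0. These shares count dim genes too. With dim genes left out, the shares of members and of all genes were both larger, with 4093 higher and 4190 lower of 11573 genes.

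**Figure D1:**
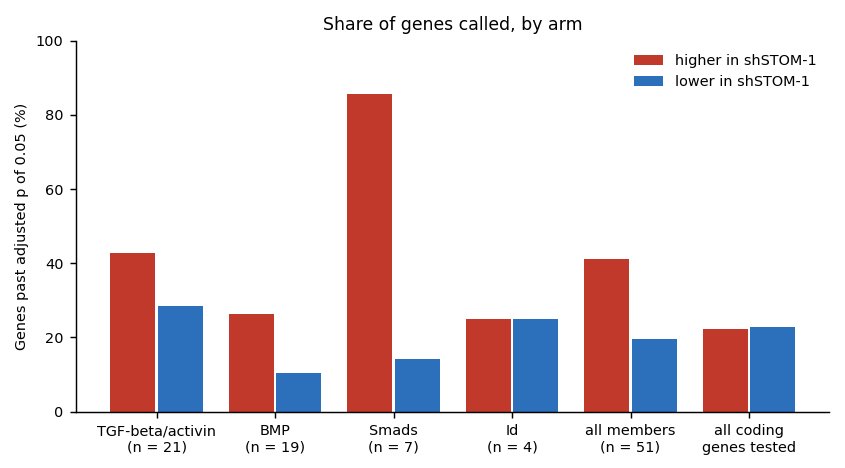
Percent of measured genes past an adjusted p of 0.05 in each arm and among all coding genes, with genes higher in shSTOM-1 cells in red and lower ones in blue. The Smads had 85.7% higher, against 22.2% of all genes, and the BMP arm had 26.3% higher and 10.5% lower.

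The members were read by arm, and most of the BMP arm was dim. Of 21 measured genes of the TGF-beta and activin arm, 9 rose (42.9%, against 22.2% of all genes) and 6 fell (28.6%, against 22.7%). The other 6 did not pass, and the arm had a median log2 change of 0.10 and a median absolute change of 0.58. Of 19 genes of the BMP arm, 5 rose (26.3%, near the share of all genes), 2 fell (10.5%) and 12 did not pass. The arm had a median of 0.02 and a median absolute change of 0.13. The 12 BMP arm genes that did not pass all had low signal in both groups. The 7 other genes of the arm all passed, so its shares and medians mostly describe dim genes. In the TGF-beta and activin arm, 4 of the 6 genes that did not pass had low signal in both groups. Of 7 Smads, 6 rose (85.7%) and 1 fell (14.3%), with a median of 0.47, and none reached 2-fold. Over all genes the median absolute change was 0.14. The difference between the arms was not tested.

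**Figure D2:**
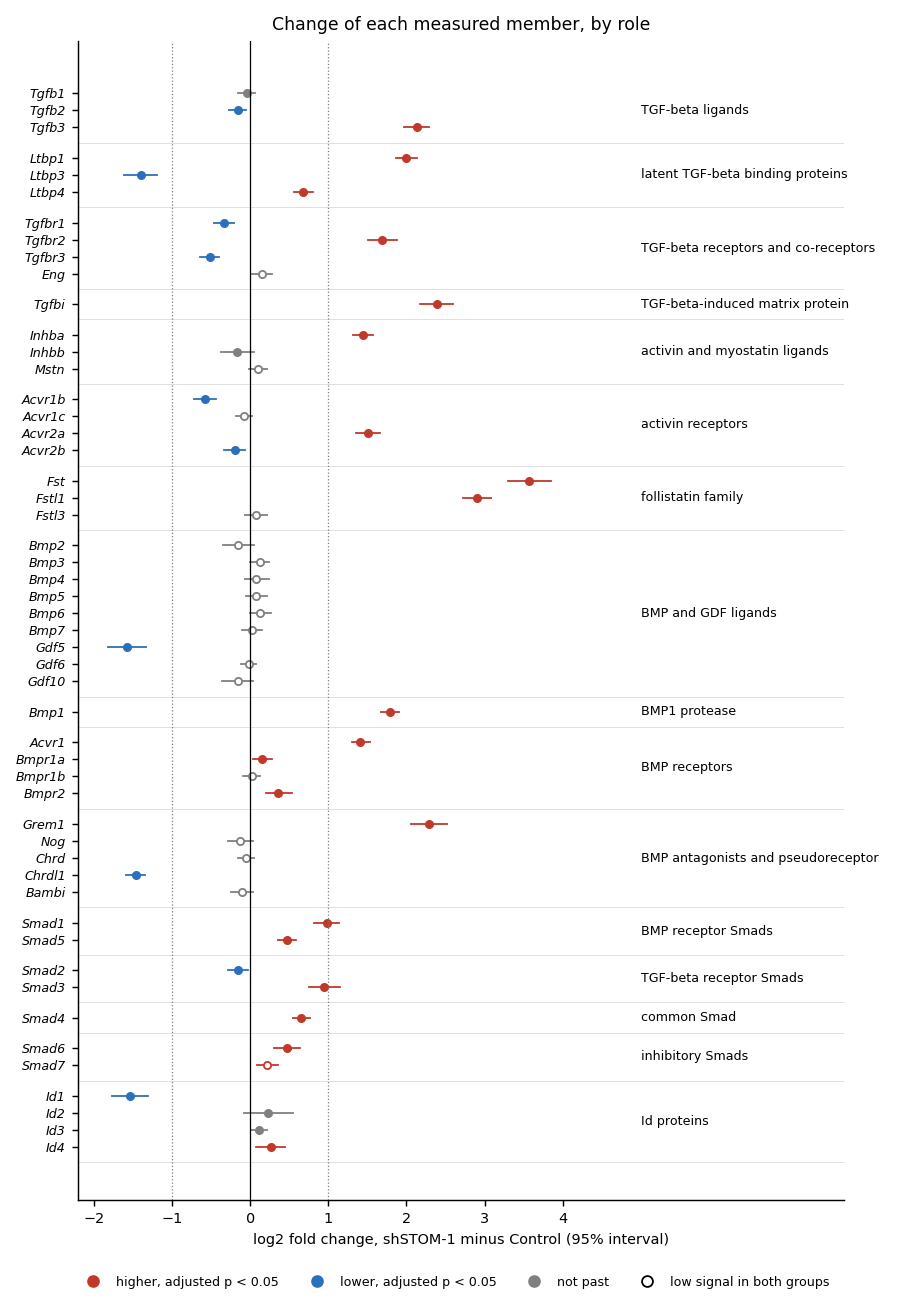
Log2 change of shSTOM-1 minus Control for each of the 51 measured members, ordered by role, with its 95% interval from limma; red is higher, blue lower, grey not past an adjusted p of 0.05, open circles mark low signal in both groups, and dotted lines mark 2-fold. Fst, at 3.57, and Gdf5, at -1.58, are the ends of the range, and 8 of the 9 BMP and GDF ligands lie near 0 with low signal.

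The TGF-beta ligands went different ways. Tgfb3 rose in shSTOM-1 cells, while Tgfb1, the ligand most often studied in fibrosis, did not pass the test and Tgfb2 was slightly lower. Tgfb3 was at 10.60, 10.46 and 10.45 in the shSTOM-1 arrays, against 8.29, 8.34 and 8.49 in the Control arrays, a log2 change of 2.13 (SE 0.07, adjusted p = 2.82e-08 from limma), or 4.38-fold. The lowest shSTOM-1 array lay 1.96 above the highest Control array. Tgfb1 was at 8.05 ± 0.03 in shSTOM-1 cells and 8.10 ± 0.03 in Control cells (SD, n = 3 each), with a log2 change of -0.04 and a 95% interval of -0.15 to 0.06. Tgfb2 had a log2 change of -0.16 (adjusted p = 0.0286 from limma), and this call was lost in 6 of 14 other settings.

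TGF-beta is secreted in a latent complex that latent TGF-beta binding proteins tether to the matrix, and these also changed in both directions. Ltbp1, which stores the latent complex on fibrillin and fibronectin fibres, was at 11.09, 11.06 and 11.11 in shSTOM-1 arrays, against 9.21, 9.03 and 9.04 in Control arrays, 3.98-fold higher (adjusted p = 2.00e-08 from limma). Ltbp3 was at 9.60, 9.63 and 9.58 in shSTOM-1 arrays, against 10.81, 10.98 and 11.22 in Control arrays, 2.64-fold lower (adjusted p = 2.43e-06). No shSTOM-1 array overlapped with a Control array in either gene. Ltbp4, which also takes part in elastic fibre assembly, rose with a log2 change of 0.68 (adjusted p = 7.04e-06 from limma).

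Among the receptors of TGF-beta, the type II receptor rose and the type I receptor fell slightly. Tgfbr2, the type II receptor that binds the ligand first, was at 12.62, 12.74 and 12.73 in shSTOM-1 arrays, against 10.86, 10.98 and 11.17 in Control arrays, a log2 change of 1.69 (SE 0.08, adjusted p = 2.72e-07 from limma). Tgfbr1, the type I kinase ALK5, was at 11.60 ± 0.01 in shSTOM-1 cells and 11.94 ± 0.09 in Control cells (SD, n = 3 each), a log2 change of -0.33 (adjusted p = 0.000818 from limma). Their 95% intervals, 1.51 to 1.88 and -0.46 to -0.21, lay on either side of 0. The co-receptor gene Tgfbr3 (betaglycan), which presents TGF-beta2 to the kinases, fell with a log2 change of -0.52 (adjusted p = 3.26e-05). Eng (endoglin), a co-receptor typical of endothelial cells, had low signal in both groups and a log2 change of 0.15 (adjusted p = 0.0705). Tgfbi, a secreted matrix protein named for its induction by TGF-beta, was at 11.57, 11.56 and 11.33 in shSTOM-1 arrays, against 8.96, 9.07 and 9.27 in Control arrays, 5.23-fold higher (adjusted p = 8.54e-08).

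**Figure D3:**
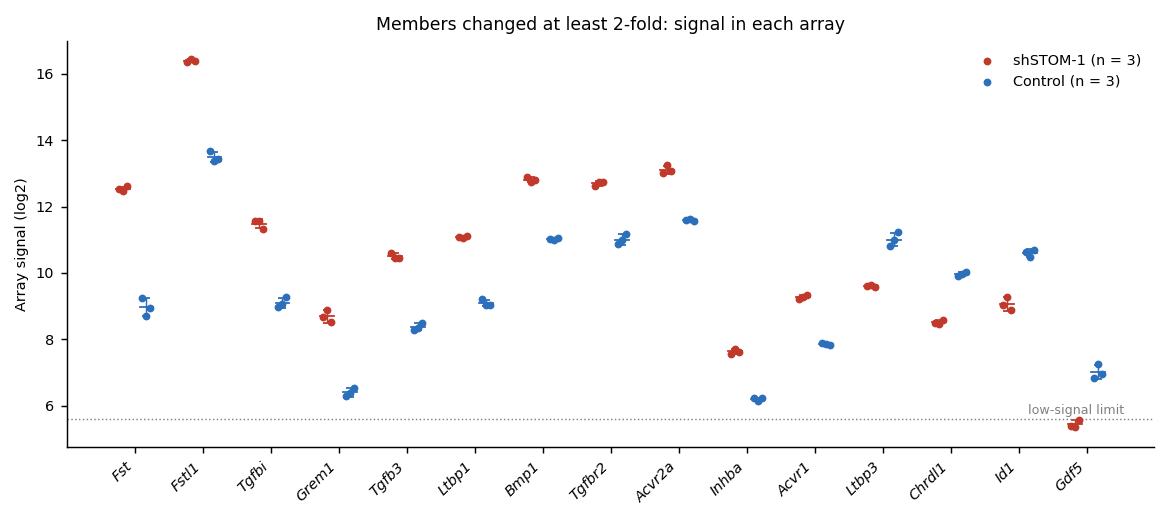
Log2 array signal of the 15 members past an adjusted p of 0.05 with at least a 2-fold change; points are arrays, horizontal bars are means and error bars are SD (n = 3 per group), shSTOM-1 in red and Control in blue. In all 15 genes the arrays of the groups are separate, as in 51.9% of all genes, and choosing genes by their change makes this likely. The shSTOM-1 points of Gdf5 lie under the low-signal limit of 5.60.

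In the activin branch, the ligand Inhba, its type II receptor Acvr2a and the activin-binding protein follistatin rose together in shSTOM-1 cells. Inhba, whose product forms activin A, was at 7.57, 7.72 and 7.61 in shSTOM-1 arrays, against 6.22, 6.14 and 6.22 in Control arrays, 2.71-fold higher (adjusted p = 7.68e-08 from limma). Acvr2a, a type II receptor for activins that also serves BMPs, was at 13.01, 13.24 and 13.07 in shSTOM-1 arrays, against 11.59, 11.63 and 11.56 in Control arrays, 2.85-fold higher (adjusted p = 1.53e-07). In both genes every shSTOM-1 array lay above every Control array. The partner receptors moved the other way or were dim. Acvr1b, the type I receptor ALK4, fell with a log2 change of -0.58 (adjusted p = 5.15e-05). Acvr2b had one of -0.20 (adjusted p = 0.0161), with low signal in shSTOM-1 cells, and this call was lost in 2 of 14 other settings. Acvr1c, the type I receptor ALK7 known in mature adipocytes, had low signal in both groups (4.12 ± 0.03 in shSTOM-1 cells and 4.20 ± 0.03 in Control cells, SD, n = 3 each). Inhbb, another activin subunit gene, had a log2 change of -0.17 with a 95% interval of -0.38 to 0.05, and Mstn (myostatin) had low signal in both groups.

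Fst had the largest change of the 51 members and ranked 80 of all 19088 genes by absolute change. Its product follistatin binds activins tightly and blocks them. Fst was at 12.52, 12.48 and 12.61 in shSTOM-1 arrays, against 9.24, 8.70 and 8.95 in Control arrays, a log2 change of 3.57 (SE 0.12, adjusted p = 3.54e-08 from limma), or 11.9-fold. The gap between the groups, 3.24, was far wider than the range within either. Fstl1, a secreted glycoprotein of the same family that is made by mesenchymal cells, was at 16.35, 16.44 and 16.40 in shSTOM-1 arrays, against 13.68, 13.38 and 13.44 in Control arrays, 7.45-fold higher (adjusted p = 1.35e-08). Fstl3, a further activin inhibitor, had low signal in both groups and a log2 change of 0.07 (adjusted p = 0.394).

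Of the 9 BMP and GDF ligands, 1 fell (11.1%, against 22.7% of all genes), none rose and 8 did not pass. These 8 (Bmp2, Bmp3, Bmp4, Bmp5, Bmp6, Bmp7, Gdf6 and Gdf10) had low signal in both groups. Their log2 changes ran from -0.16 to 0.13, and whether these genes were expressed at all could not be told at this signal. Gdf5, a ligand known from joint and cartilage development, was at 5.38, 5.35 and 5.57 in shSTOM-1 arrays, against 6.83, 7.24 and 6.96 in Control arrays. Its log2 change was -1.58 (SE 0.11, adjusted p = 2.50e-06 from limma), and since the shSTOM-1 mean was low signal the fold is approximate. Bmp1, in spite of its name a metalloproteinase that trims procollagens and releases BMPs from chordin, was at 12.90, 12.75 and 12.79 in shSTOM-1 arrays, against 11.02, 11.00 and 11.04 in Control arrays, 3.47-fold higher (adjusted p = 1.94e-08).

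None of the 4 genes listed as BMP receptors fell, while Acvr2a and Acvr2b were listed with the activin receptors. Acvr1, the type I receptor ALK2, was at 9.20, 9.27 and 9.34 in shSTOM-1 arrays, against 7.88, 7.85 and 7.84 in Control arrays, 2.66-fold higher (adjusted p = 5.44e-08 from limma). The other receptors changed little. Bmpr2, the type II receptor, had a log2 change of 0.36 (adjusted p = 0.00290), and Bmpr1a had one of 0.15 (adjusted p = 0.0488), a call lost in 8 of 14 other settings. Bmpr1b had low signal in both groups.

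The BMP antagonists were split. Grem1 (gremlin), which binds BMP2 and BMP4, was at 8.67, 8.88 and 8.51 in shSTOM-1 arrays, against 6.29, 6.37 and 6.53 in Control arrays, a log2 change of 2.29 (SE 0.10, adjusted p = 1.53e-07 from limma), or 4.89-fold. Chrdl1 (chordin-like), another secreted BMP antagonist, was at 8.50, 8.45 and 8.57 in shSTOM-1 arrays, against 9.90, 9.98 and 10.03 in Control arrays, a log2 change of -1.46 (SE 0.06, adjusted p = 6.82e-08), or 2.76-fold lower. Both genes had groups that did not overlap, with gaps of 1.98 and 1.33. Nog (noggin), Chrd (chordin) and the pseudoreceptor gene Bambi had low signal in both groups, with log2 changes between -0.13 and -0.05.

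The Smads rose by less than 2-fold, apart from Smad2. Smad1, which carries BMP signals, was at 7.76 ± 0.10 in shSTOM-1 cells and 6.78 ± 0.10 in Control cells (SD, n = 3 each), a log2 change of 0.98 (adjusted p = 4.35e-06 from limma). Smad5, its close relative, had a log2 change of 0.47 (adjusted p = 4.67e-05). Of the TGF-beta receptor Smads, Smad3 was at 9.05 ± 0.08 in shSTOM-1 cells and 8.10 ± 0.17 in Control cells (SD, n = 3 each), a log2 change of 0.95 (adjusted p = 1.96e-05). Smad2 had one of -0.16 (adjusted p = 0.0497), and its call was lost in 8 of 14 other settings. Smad4, the partner of both kinds, was at 12.00 ± 0.02 in shSTOM-1 cells and 11.34 ± 0.05 in Control cells (SD, n = 3 each), a log2 change of 0.65 (adjusted p = 4.06e-06). The inhibitory Smad6 had a log2 change of 0.47 (adjusted p = 0.000708). Smad7, which inhibits both arms, had one of 0.22 (adjusted p = 0.0140) at low signal in both groups, lost in 2 of 13 other settings. Smad phosphorylation was not measured on these arrays.

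The Id genes encode inhibitors of helix-loop-helix transcription factors and are classical targets of BMP signaling, and only Id1 of the 4 changed by 2-fold. Id1 was at 9.03, 9.28 and 8.88 in shSTOM-1 arrays, against 10.63, 10.48 and 10.70 in Control arrays, a log2 change of -1.54 (SE 0.10, adjusted p = 2.32e-06 from limma), or 2.91-fold lower. Every shSTOM-1 array lay below every Control array. Id4, with low signal in Control cells, had a log2 change of 0.26 (adjusted p = 0.0271), a call lost in 5 of 14 other settings. Id2, at 7.26 ± 0.12 in shSTOM-1 cells and 7.02 ± 0.30 in Control cells (SD, n = 3 each), and Id3, with a log2 change of 0.11, did not pass (adjusted p = 0.22 and 0.076). Id3 also had low signal in Control cells. The 95% interval of Id1, -1.77 to -1.31, did not meet those of Id2, -0.08 to 0.55, Id3, 0.01 to 0.21, and Id4, 0.08 to 0.44.

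The 15 members with at least a 2-fold change passed in all 14 other settings, with a highest adjusted p of 0.00192. For each of them the exact permutation test of 3 arrays against 3 gave a two-sided p of 0.1, the smallest this design allows. Since these members were picked by their change and adjusted p, this outcome was near fixed and adds no support. The SD of a member had a median of 0.07 in both groups, and its highest value was 0.20 in shSTOM-1 cells and 0.30 in Control cells.

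Promoters of 4 members are shown, chosen after the matches were known. Tgfbi and Grem1 are those of the members changed 2-fold or more whose promoters held both motifs searched, Fstl1 is a risen member with neither, and Ltbp3 is a member that fell. They are RefSeq sequences of GRCm38.p6, from 250 bases before to 50 after the start, at chr13:56609336-56609635 (plus strand), chr2:113758599-113758898 (minus strand), chr16:37776805-37777104 (plus strand) and chr19:5740650-5740949 (plus strand), and 35 of the 51 members had an entry, 44 promoters in all. Capitals mark GGCGCC, letters that Smad1 and Smad5 can bind, and CAGAC or its complement GTCTG, letters that Smad3 and Smad4 can bind, searched on both strands, and no match of one overlapped a match of the other in these promoters.
Tgfbi: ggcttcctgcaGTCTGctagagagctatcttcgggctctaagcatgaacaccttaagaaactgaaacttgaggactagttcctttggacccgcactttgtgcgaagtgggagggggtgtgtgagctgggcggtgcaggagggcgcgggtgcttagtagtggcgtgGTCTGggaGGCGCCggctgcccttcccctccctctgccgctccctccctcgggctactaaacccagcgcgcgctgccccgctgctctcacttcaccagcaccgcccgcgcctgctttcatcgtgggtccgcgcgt
Grem1: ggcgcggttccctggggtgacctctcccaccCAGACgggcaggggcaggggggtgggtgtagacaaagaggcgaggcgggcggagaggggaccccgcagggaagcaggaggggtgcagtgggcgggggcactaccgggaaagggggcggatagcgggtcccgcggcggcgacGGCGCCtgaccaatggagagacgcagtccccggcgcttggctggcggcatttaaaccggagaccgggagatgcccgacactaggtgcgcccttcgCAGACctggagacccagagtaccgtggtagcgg
Fstl1: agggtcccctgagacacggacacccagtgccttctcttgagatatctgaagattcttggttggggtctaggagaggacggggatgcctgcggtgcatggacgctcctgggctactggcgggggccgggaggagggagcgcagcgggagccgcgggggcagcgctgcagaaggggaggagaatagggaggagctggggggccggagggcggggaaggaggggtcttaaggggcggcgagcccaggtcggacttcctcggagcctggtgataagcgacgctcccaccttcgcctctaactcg
Ltbp3: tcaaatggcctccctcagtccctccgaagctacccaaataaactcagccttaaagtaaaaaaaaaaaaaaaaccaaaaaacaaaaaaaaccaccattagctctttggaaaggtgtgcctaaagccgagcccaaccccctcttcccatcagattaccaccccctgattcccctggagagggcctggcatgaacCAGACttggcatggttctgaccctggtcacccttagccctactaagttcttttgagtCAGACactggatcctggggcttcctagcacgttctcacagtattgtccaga

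The Tgfbi and Grem1 promoters each held 1 GGCGCC and 2 CAGAC matches, the Fstl1 promoter held neither, and the Ltbp3 promoter held 2 CAGAC matches and no GGCGCC. Among all members, the letters GGCGCC were found in 14 of the 44 member promoters (31.8%), against 11.9% of all 32841 promoters and 15.7% of the 18899 promoters of coding genes tested. Overlapping windows of Ltbp4 and of Smad5 held the same site, so these 14 promoters held 12 distinct sites, in 12 of 35 member genes (34.3%), against 17.9% of coding genes tested. The member promoters were also richer in G and C, with a median of 64.7%, against 57.0% for coding genes tested. CAGAC was found in 21 member promoters (47.7%), against 49.6% of all promoters. A PPAR response element, searched as AGGTCA repeated with 1 base between, was found in none of the member promoters and in 0.0396% of all promoters. Only 9 of the 15 members that changed 2-fold or more had a promoter entry, and the rest were not searched. Of the 10 promoters of these 9, 2 held GGCGCC and 7 held CAGAC. A match is a description of letters and not of a bound site.

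Genes known to respond to TGF-beta, in a list chosen with earlier results of these data known, were mostly higher in shSTOM-1 cells. Of 22 measured TGF-beta target genes, 18 rose (81.8%, against 22.2% of all genes) and 2 fell (9.09%, against 22.7%). The other 2 did not pass, and the list had a median log2 change of 1.74, against 0 for all genes. Acta2, the smooth muscle actin of myofibroblasts, was at 14.47, 14.52 and 14.31 in shSTOM-1 arrays, against 10.76, 10.59 and 10.76 in Control arrays, 13.3-fold higher (adjusted p = 6.76e-09 from limma). The collagen crosslinking enzyme gene Lox was 6.29-fold higher, Col1a1 5.24-fold and Thbs1, whose product thrombospondin can activate latent TGF-beta, 5.07-fold. The genes that fell, named after their values were seen, were the cell cycle inhibitor gene Cdkn1a and Skil, a repressor of Smads, with log2 changes of -0.65 and -0.64 (adjusted p = 2.40e-05 and 3.58e-05 from limma). Ccn2 and Cnn1 had low signal in both groups and did not pass. Many of these target genes are also made by fibroblasts in general, and the fibroblast markers rose on the same arrays.

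Of 12 measured genes known to respond to BMPs, outside the Id and Smad members, 4 rose (33.3%, against 22.2% of all genes), 2 fell (16.7%, against 22.7%) and 6 did not pass, with a median log2 change of 0.00, and 7 had low signal in both groups. The homeobox gene Dlx2, with low signal in Control cells, had a log2 change of 1.07 (adjusted p = 2.86e-06 from limma) and the transcription factor gene Atoh8 had one of 0.68 (adjusted p = 0.000633). Alpl, the alkaline phosphatase of bone, had one of -1.05 with low signal in shSTOM-1 cells (adjusted p = 1.11e-06), and Hes1 one of -0.52 (adjusted p = 5.31e-05).

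**Figure D4:**
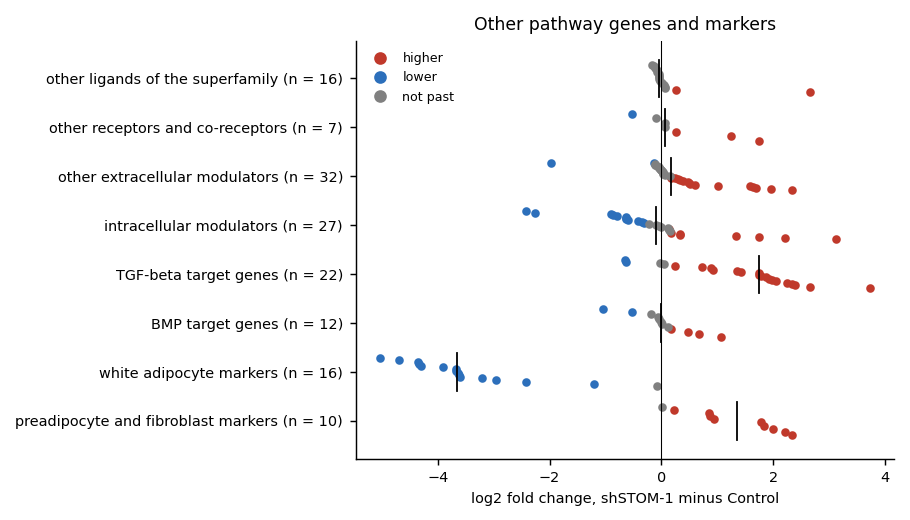
Log2 change of shSTOM-1 minus Control for each gene of 6 further pathway lists and 2 marker lists; each point is a gene, red higher, blue lower and grey not past an adjusted p of 0.05, and black lines are list medians. TGF-beta target genes have a median of 1.74, BMP target genes of 0.00 and white adipocyte markers of -3.65.

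Among the other ligands of the superfamily, 2 of 16 rose (12.5%, against 22.2% of all genes), none fell and 14 had low signal in both groups. Gdf11, a close relative of myostatin, was at 8.59, 8.64 and 8.45 in shSTOM-1 arrays, against 5.89, 5.93 and 5.92 in Control arrays, 6.26-fold higher (adjusted p = 7.36e-09 from limma). The second was Bmp15, at a log2 change of 0.27 with low signal in both groups. Of 7 other receptors and co-receptors, 3 rose (42.9%) and 1 fell (14.3%, against 22.7% of all genes). The BMP co-receptor gene Rgmb was 3.37-fold higher (adjusted p = 2.89e-08) and its relative Rgma 1.45-fold lower (adjusted p = 0.000328). Vasn, which encodes a TGF-beta-binding membrane protein, was 2.38-fold higher and Acvrl1, the receptor ALK1, 1.20-fold higher.

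Of 32 other extracellular modulators, 18 passed (56.2%, against 44.9% of all genes), of which 16 rose and 2 fell (6.25% of the list, against 22.7% of all genes), and 14 did not pass, with a median log2 change of 0.17. Besides Thbs1, the small proteoglycans Dcn (decorin) and Aspn (asporin), which bind TGF-beta, were 3.89-fold and 3.24-fold higher (adjusted p = 4.51e-07 and 9.65e-07 from limma). Smoc1, a matrix protein that inhibits BMP signaling in frog embryos, was 3.91-fold lower, with low signal in shSTOM-1 cells. Of 27 intracellular modulators, 8 rose (29.6%, against 22.2% of all genes) and 12 fell (44.4%, against 22.7%), with a median log2 change of -0.10. Dab2, an endocytic adaptor that binds TGF-beta receptors, was 8.67-fold higher (adjusted p = 7.89e-09) and Zfp521, a zinc finger protein that opposes adipocyte commitment, 4.64-fold higher. Zfp521 was also counted among the preadipocyte and fibroblast markers. The kinase gene Hipk2 was 5.39-fold lower and Tob1, an antiproliferative Smad-binding protein, 4.80-fold lower (adjusted p = 6.63e-08 and 8.31e-07).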

How the data were processed

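Total RNA of 3 shSTOM-1 and 3 Control samples was hybridised to Affymetrix MTA-1_0 arrays. The values deposited by the authors are log2 signals of 65956 transcript clusters, made with the Transcriptome Analysis Console. The sources used here do not give the background correction, normalization, build or annotation version. The number of arrays limits the precision.

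Clusters were named through the array annotation, where 30638 had 1 symbol, 2176 had several and 33142 were not listed. Of those with 1 symbol, 30636 matched RefSeq genes of GRCm38.p6, used for 330 updated symbols and gene types. The 19088 coding genes were tested, with the cluster of highest mean taken for 241 genes that had several. The model was fitted in limma 3.58.1 (lmFit, then eBayes; R 4.3.3), p-values were adjusted by Benjamini-Hochberg across all of these genes, and 0.05 was the threshold. The procedure was tested on simulated data.

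Members past 0.05 with at least a 2-fold change are given with the value in every array, and up to 4 genes of each other pathway list with the largest change past it are named with their change. The members and lists were chosen with earlier results of these data known. Genes of the lists without a value here were not analysed. Alternatives covered normalization, scaling, a filter on dim genes, cluster choice, moderation, a replicate block, the genes tested, the fold threshold and each array left out. Tables were made with Python 3.11.15 and pandas 2.3.3.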

Additional observations from a re-analysis of the deposited data

How the results depend on the processing

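The count of members past an adjusted p of 0.05 from limma, 21 higher and 10 lower in shSTOM-1 cells, stayed within 1.5 times under 14 alternatives, at 18 to 21 higher and 7 to 11 lower, both ranges from leaving out 1 array at a time. With 2-fold and an adjusted p under 0.001 it was 11 higher and 4 lower, and with 3-fold it was 8 higher and 0 lower, since the largest fall of a member was 2.98-fold. With dim genes left out, 35 members were tested, 20 higher and 10 lower, against 4093 higher and 4190 lower of 11573 genes. These shares of all genes were larger than the 22.2% higher and 22.7% lower of the main test, which count dim genes too. With the linear model without moderation there were 19 higher and 9 lower. With the clone number as a replicate block there were 20 higher and 8 lower. The deviations of same-numbered clones correlated at -0.04, 0.03 and -0.13, and those of differently numbered clones at -0.15 to 0.17. With so few arrays these values cannot show whether same-numbered samples were handled together. In the alternatives that kept all 19088 genes, 3849 to 4239 of these were higher and 3923 to 4604 lower. With all 30098 genes that had a single symbol, 5480 were higher and 5670 lower. No called member turned its direction. The calls of Tgfb2, Acvr2b, Bmpr1a, Smad2, Smad7 and Id4 were lost in 1 or more alternatives, and those of Inhbb, Nog and Id3 were gained in 1 each. The cause was not tested. Signal near the median of all values limits what can be said of 17 members with low signal in both groups.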

Other observations

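Of 7 markers of myofibroblasts and muscle, 2 rose (Acta2 and Tagln) and 2 fell at an adjusted p of 0.05 from limma. The other 3 missed it. The share was 28.6% in each direction, near the 22.2% higher and 22.7% lower of all genes. Des, which encodes the muscle filament protein desmin, was at 6.68, 6.62 and 6.48 in shSTOM-1 arrays, against 9.48, 9.48 and 9.75 in Control arrays, 7.87-fold lower (adjusted p = 1.78e-08). Myh11, the smooth muscle myosin, was 2.08-fold lower (adjusted p = 1.24e-06). Tagln had low signal in both groups, with a log2 change of 0.24 (adjusted p = 0.0451), as did Cnn1, Myod1 and Myog.

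Of 5 proliferation markers, Pcna rose with a log2 change of 0.72 (adjusted p = 1.40e-05 from limma), Top2a fell with one of -0.27 (adjusted p = 0.00767), and 3 did not pass. All 6 endothelial markers had low signal in both groups, although Pecam1 had a log2 change of -0.17 (adjusted p = 0.0157). Of 6 macrophage markers, 4 had low signal in both groups, Lyz2 had a log2 change of 0.58 and Cd68 one of -0.72.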
